A study of Canis lupus familiaris with 4 samples.

Results

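The genes described here make, lengthen, desaturate, activate and oxidise fatty acids. They were chosen by name, with earlier results of these data known. They are 34 genes of the pathway, each found through the platform's gene symbol, out of 15115 genes with a symbol on the array. The cells were MDCKII (ATCC CCL-34), an established epithelial line from dog kidney, and total RNA of 4 cultures was hybridised to 4 Affymetrix arrays, 1 for each combination of HIF1A state and oxygen. The groups were HIF1A WT in normoxia, HIF1A KD in normoxia, HIF1A WT in hypoxia and HIF1A KD in hypoxia, where KD stands for a knockdown. All cells first spent 24 h in normoxia and then another 24 h in the labelled condition. The labels do not state how the knockdown was made, whether it was 1 clone, or the oxygen level. The design asks how 24 h of hypoxia changes expression and how far that depends on HIF1A.

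Fatty acid synthesis starts from acetyl-CoA, which ACLY cuts from citrate and ACSS2 makes from acetate. ACACA turns it into malonyl-CoA, FASN builds palmitate, and ELOVL and desaturase enzymes lengthen the chain or add double bonds, a step of the SCD and FADS enzymes that uses molecular oxygen. For oxidation, acyl-CoA enters mitochondria through CPT1A and CPT2 and passes the dehydrogenase, hydratase, second dehydrogenase and thiolase steps, and its electrons reach the respiratory chain through ETFA, ETFB and ETFDH. SREBF1 drives synthesis genes, the PPAR receptors respond to fatty acids, and kidney tubule cells are known for a high use of fatty acids as fuel. HIF1A encodes the oxygen-regulated subunit of the HIF-1 transcription factor.

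A level below is the deposited intensity of a probe set, a group of short probes for 1 transcript. A difference is that of log2(intensity + 16), so it understates the change of dim genes. Where 4 intensities follow each other with no labels, they stand in the label order: first normoxia (WT, then KD), then hypoxia (WT, then KD). A gene stands as its probe set with the highest mean, and the floor is the median of all values, an intensity of 46.3. The floor was reached somewhere by 32 of the 34 genes and in all 4 arrays by 30. FADS2, which read 14.9 to 29.3, and PPARGC1A, which read 25.2 to 39.5, lay below it in every array, so no size is read from their differences. ACADL exceeded it only in the array labelled WT normoxia, and PPARA fell below it in the array labelled KD hypoxia. The 4 arrays correlated with r from 0.982 to 0.987 across all probe sets, with median intensities from 45.6 to 47.1. Epithelial identity was checked with 10 markers. Of these 7 exceeded the floor in all arrays, among them EPCAM (9356 to 11319) and KRT18 (12783 to 14418). CDH1, CLDN2 and PODXL lay below it in every array, as did 6 of 10 fibroblast, blood and endothelial markers measured here. The other 4 (PDGFRA, PTPRC, CDH5 and KDR) were tested and not called in either term (1 had an unadjusted limma p under 0.05 in each), while the epithelial EPCAM rose by 0.23 in the oxygen term and TJP1 fell in it by 0.26 and rose in the genotype term by 0.31, whose part in the results was not tested.

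HIF1A itself went against the knockdown label. It read 3651 in the array labelled WT normoxia and 3435 in that labelled KD normoxia. Under the hypoxia label it read 675 in WT and 625 in KD. The message was low in both arrays labelled hypoxia and high in both labelled normoxia, so directions below follow the labels only. HIF1A differed by -0.09 between KD and WT in normoxia and by -0.11 in hypoxia, so the message bears out the KD label of neither KD array. If the arrays labelled KD normoxia and WT hypoxia changed places, the oxygen and genotype terms described below would trade their values. Whether these 2 arrays were exchanged was not tested. The difference between the remaining arrays, labelled KD hypoxia and WT normoxia, does not use these 2 and is given for each called gene. That pair changes both labels at once. Its value is the sum of a gene's oxygen and genotype coefficients, so it is no separate check of either.

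With 1 array per group, a difference between 2 arrays has no replicate check. Both arrays of 1 label often lie above both of the other, so nothing is read from such a split alone. Among genes above the floor in all arrays, the orders with both KD arrays first held for 6.57%, 5.07%, 4.02% and 3.75%. With both WT arrays first it was 8.48%, 5.05%, 4.87% and 4.14%. With both normoxia arrays first it was 6.95%, 4.88%, 4.44% and 3.11%, and with both hypoxia arrays first 9.02%, 5.82%, 5.43% and 3.57%. The 1 test the arrays allow is an additive limma model with a genotype and an oxygen term, adjusted by Benjamini-Hochberg over 9834 genes. It holds 1 residual degree of freedom, and its variance rests mostly on a prior from genes of like intensity, so its p-values do not measure the spread between cultures. In RNA from a whole culture, fewer expressing cells and less RNA per cell cannot be told apart.

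The called fatty acid genes are given by term, beside the shares over all genes. In the oxygen term, labelled hypoxia minus normoxia, PLIN2 rose and ECHS1, PPARG and FABP3 fell among 32 tested. Over all genes 4.72% rose and 4.17% fell, against 3.12% and 9.38% of the fatty acid genes. In the genotype term, labelled KD minus WT, PPARG, FABP3, ACAA2 and ACLY rose and CPT1A fell. That is 12.5% and 3.12% of the 32, against 2.94% and 2.43% of all genes. With so few genes, each of these shares rests on 1 to 4 of them. The genes were chosen with earlier results of these data known, so no excess over all genes is read as a finding here. At an unadjusted limma p under 0.05 there were 12 of the 32 in the oxygen term (37.5%, against 23.7% of all genes) and 13 in the genotype term (40.6%, against 22.3%). With quantile scaling 9 and 8 of the fatty acid genes were called. Under that scaling limma's prior had infinite degrees of freedom, so a gene's own residual did not count in its p-value. All 9 calls ended when limma's prior was fitted without its intensity trend (adjusted p from 0.111 to 0.286), and all but that of ECHS1 ended without the floor.

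By size, few genes reached 1.5-fold in any pair of arrays. In labelled hypoxia minus normoxia of WT cells these were PLIN2, higher, and ECHS1, lower, where 3.34% of all genes were higher and 2.88% lower by that much. In KD cells it was ECHS1 alone, lower, where 3.41% of all genes were higher and 4.05% lower. In labelled KD minus WT in normoxia it was PPARG alone, higher, against 3.76% higher and 2.82% lower of all genes. In hypoxia PPARG was higher, against 2.74% of all genes, and 2.59% were lower. ACADL and PPARA counted as lower there, but ACADL lay below the floor in both arrays of that pair and PPARA in 1, so neither size is measured. Each of these counts is 1 or 2 of 32 genes, and nothing more is read from them. At 2-fold ECHS1 remained, lower in KD cells, where 0.559% of all genes were higher and 0.997% lower. None of the 32 reached 2-fold in WT cells (0.6% and 0.569% of all genes), in KD minus WT in normoxia (0.854% and 0.325%) or hypoxia (0.519% and 0.356%), or in the difference of the responses described next (0.875% and 0.691%).

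Small differences below 0 were frequent in the oxygen pairs. The median over all 34 genes was -0.12 in WT cells, with 24 genes below 0, and -0.15 in KD cells, with 25 below 0. Over all 15115 genes both medians were 0.01. These pairs share no array, and 20 of the 34 genes (58.8%) were lower in both, against 28.6% of all genes. Only 5 (14.7%) were higher in both, against 31.9%. These shares were not tested, and they too come from genes chosen with earlier results known. In labelled KD minus WT the medians were 0.02 in normoxia and -0.02 in hypoxia, with 15 genes higher in both pairs (44.1%, against 28.4% of all genes) and 14 lower in both (41.2%, against 31.8%). The labelled oxygen response of WT cells minus that of KD cells had a median of -0.0016, against -0.0049 over all genes. PPARA alone reached 1.5-fold in it (0.73), against 4.11% of all genes larger and 3.44% smaller. PPARA lay below the floor in 1 array, so that size is not measured. Its other probe set, below the floor in every array, gave -0.43.

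**Figure D1:**
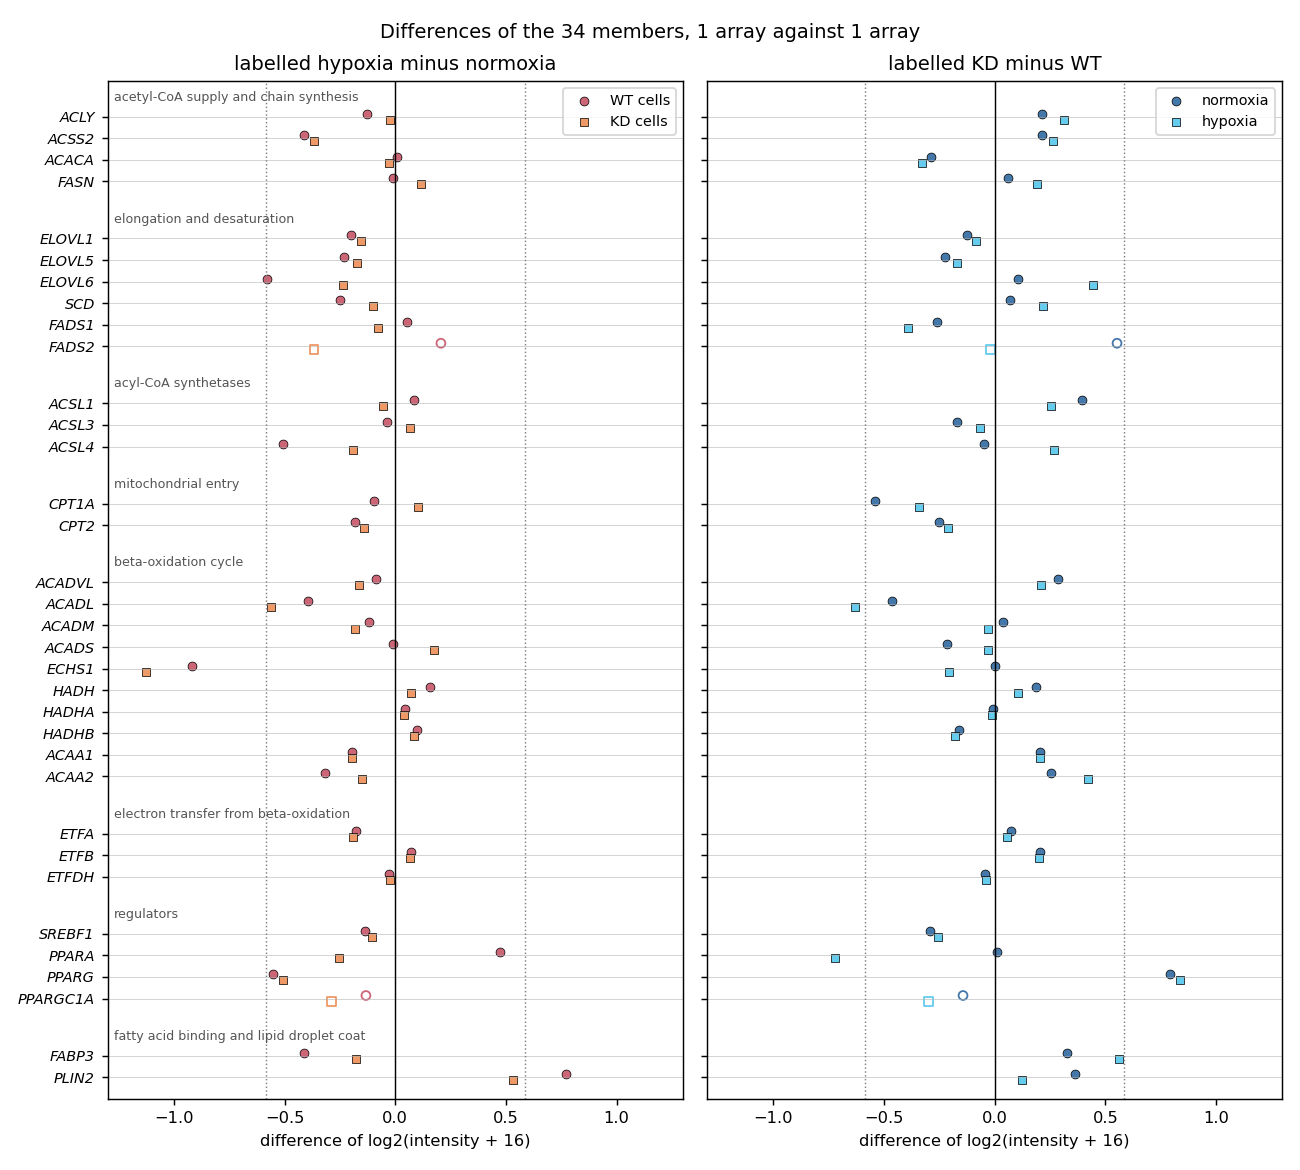
Differences of log2(intensity + 16) for the 34 genes by role, with labelled hypoxia minus normoxia on the left (circles WT cells, squares KD cells) and labelled KD minus WT on the right (circles normoxia, squares hypoxia), each between 1 array and 1 array. Dotted lines mark 1.5-fold, and open symbols mark FADS2 and PPARGC1A, below the floor in every array; most points lie between the dotted lines, while ECHS1 stands at -0.92 and -1.13 on the left and PPARG at 0.79 and 0.84 on the right.

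Of the 4 genes that supply acetyl-CoA and build the chain, ACLY alone was called. ACLY read 9335 in the array labelled WT normoxia and 10815 in that labelled KD normoxia. Under the hypoxia label it read 8549 in WT and 10628 in KD. Both KD arrays thus lay above both WT arrays, and ACLY rose in the genotype term by 0.26 (SE 0.05, limma adjusted p = 0.0174), a 1.20-fold change. Its second probe set above the floor, at 1644, 2341, 1333 and 1939 in the label order, gave a genotype coefficient of 0.52. That probe set also fell in the oxygen term, by 0.28, when fitted by itself (limma adjusted p = 0.0366), and with the median over probe sets the oxygen call of ACLY appeared (-0.28, adjusted p = 0.0179), against -0.08 in the brightest. The difference of the arrays labelled KD hypoxia and WT normoxia was 0.19.

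FASN, which builds palmitate, read 3362, 3507, 3334 and 3807 in the label order, and its pair differences ran from -0.01 to 0.19. ACSS2 had oxygen differences of -0.41 in WT cells and -0.37 in KD cells, which did not pass the test (adjusted p = 0.0991) except under quantile scaling (0.0442). ACACA, the rate-limiting carboxylase of synthesis, had 4 probe sets that reached the floor, 2 of which lay below it in 2 arrays. All of them were lower in KD than in WT in both oxygen states. The probe set of highest mean read 127 and 128 in the WT arrays against 101 and 98.7 in the KD arrays, and its genotype coefficient of -0.31 did not pass (adjusted p = 0.228). The probe set with the largest coefficient, -0.82, read 154 and 152 in the WT arrays and 66.3 and 95.7 in the KD arrays. When every probe set was fitted by itself, that probe set was called (limma adjusted p = 0.00391) and the other 3 were not. ACACA thus ran opposite to ACLY between the labelled genotypes, though the direction for ACACA is called in 1 probe set only.

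Neither term called any of the 5 tested genes of elongation and desaturation, with 2 of them at an unadjusted limma p under 0.05 in the oxygen term and 1 in the genotype term. ELOVL1, ELOVL5, ELOVL6 and SCD were each lower with labelled hypoxia in both genotypes. ELOVL6, which lengthens palmitate, read 108 and 67.2 in the WT arrays labelled normoxia and hypoxia, and 118 and 97.3 in the KD arrays. Its differences of -0.58 and -0.24 did not pass (adjusted p = 0.155). SCD, the enzyme that makes oleate, read 9537 and 8006 in the WT arrays and 10011 and 9330 in the KD arrays. Its oxygen coefficient was -0.18 (SE 0.05, adjusted p = 0.0677). It passed under quantile scaling (adjusted p = 0.00343), cyclic loess (0.0167) and a pseudocount of 64 (0.0465), and also when each probe set was fitted by itself (0.0414), so its call depends on the processing. A second, dimmer probe set, at 220, 261, 214 and 261 in the label order, had an oxygen coefficient of -0.02. FADS1, a polyunsaturated fatty acid desaturase, read 75.2 and 78.6 in the WT arrays and 60.2 and 56.2 in the KD arrays, with no call (genotype adjusted p = 0.324).

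The acyl-CoA synthetases attach coenzyme A to fatty acids, and none of the 3 was called, with 1 at an unadjusted limma p under 0.05 in each term. ACSL1 read 856 and 909 in the WT arrays against 1129 and 1088 in the KD arrays, so both KD arrays were higher, with a genotype coefficient of 0.32 (SE 0.09, adjusted p = 0.0666). It passed under quantile scaling (0.0149), median centring (0.0357), cyclic loess (0.0272), the 75th percentile floor (0.0475), a pseudocount of 64 (0.0469) and fitted by itself (0.0462). ACSL4, which prefers arachidonate, read 678 and 473 in the WT arrays labelled normoxia and hypoxia and 655 and 572 in the KD arrays. Its oxygen coefficient was -0.35 (adjusted p = 0.0807), which passed under quantile scaling (0.00745), cyclic loess (0.0319) and the median over probe sets (0.0361). ACSL3 pair differences stayed between -0.17 and 0.07.

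CPT1A, which forms acylcarnitine at the outer mitochondrial membrane and is the gate of mitochondrial oxidation, read 2064 and 1929 in the arrays labelled WT normoxia and WT hypoxia. It read 1415 and 1519 in the arrays labelled KD normoxia and KD hypoxia. Both KD arrays thus lay below both WT arrays. CPT1A fell in the genotype term by 0.44 (SE 0.08, limma adjusted p = 0.0192), a 1.36-fold change, and its oxygen coefficient was 0.00. The difference of the arrays labelled KD hypoxia and WT normoxia was -0.44. Its other probe set lay below the floor in every array. CPT2, the inner membrane partner, read 1518 and 1338 in the WT arrays and 1274 and 1155 in the KD arrays, with a genotype coefficient of -0.23 that did not pass (adjusted p = 0.131).

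Of the 10 genes of the beta-oxidation cycle 1 fell with labelled hypoxia, and it was the largest difference among the fatty acid genes above the floor. ECHS1, the short-chain enoyl-CoA hydratase of mitochondria, read 2177 in the array labelled WT normoxia and 2182 in that labelled KD normoxia. Under the hypoxia label it read 1146 in WT and 990 in KD. Both arrays labelled hypoxia lay near 1 level and both labelled normoxia near another, and such an order of the labels is frequent among all genes. ECHS1 fell in the oxygen term by 1.02 (SE 0.08, limma adjusted p = 0.000200), a 2.03-fold change, and the genotype coefficient was -0.10. A second probe set read 285 and 297 in the normoxia arrays and 133 and 136 in the hypoxia arrays, and fell by 1.02 as well. The other, dimmer one read 106, 88.8, 64.9 and 91.1 in the label order, so it was lower in WT cells only. Its coefficient of -0.28 was not called (adjusted p = 0.388). The difference of the arrays labelled KD hypoxia and WT normoxia was -1.12. ECHS1 follows the same split of the arrays as the HIF1A message.

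No other gene of the cycle was called in the oxygen term with the highest-mean probe set and the deposited scaling. HADHA and HADHB form the trifunctional protein for long chains, and HADHA read 3736 to 3875 over the 4 arrays. HADHB read 2856 and 3060 in the WT arrays and 2549 and 2700 in the KD arrays, and neither gene was called. HADH, the short-chain hydroxyacyl-CoA dehydrogenase after ECHS1, read 3285 to 3932, with oxygen differences of 0.15 and 0.07. Among the first dehydrogenases, ACADVL read 1327 and 1247 in the WT arrays and 1619 and 1445 in the KD arrays (genotype adjusted p = 0.109). ACADM, the medium-chain enzyme, read 2885 to 3280. Its 3 probe sets were each lower with labelled hypoxia in both genotypes, with oxygen coefficients of -0.15, -0.29 and -0.39. Fitted by themselves, none was called (limma adjusted p = 0.207, 0.0993 and 0.0583). The pair differences of ACADS, the short-chain enzyme, lay between -0.22 and 0.17.

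ACADL, the long-chain enzyme, read 51.6, 33.0, 35.4 and 17.2 in the label order, below the floor in all but the first, so its differences have no measured size. The mitochondrial thiolase ACAA2 read 2230 and 1784 in the WT arrays against 2666 and 2398 in the KD arrays. It rose in the genotype term by 0.34 (SE 0.07, limma adjusted p = 0.0358), a 1.27-fold change. Its second probe set read 1559, 1580, 1438 and 1536 in the label order, with a genotype coefficient of 0.06, and the call ended with the median over both (adjusted p = 0.114). The difference of the arrays labelled KD hypoxia and WT normoxia was 0.10, below each of the genotype differences. ACAA1, the peroxisomal thiolase, had oxygen differences of -0.19 and -0.20 and genotype differences of 0.21 and 0.20, and was called in neither term.

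The electron transfer genes differed little. ETFDH, which hands electrons to ubiquinone, read 3522 to 3691 over the 4 arrays, with pair differences from -0.05 to -0.02. ETFB, a subunit of the electron transfer flavoprotein, read 625 and 657 in the WT arrays and 723 and 757 in the KD arrays. ETFA, the other subunit, read 3305 and 2921 in the WT arrays labelled normoxia and hypoxia and 3477 and 3040 in the KD arrays, with oxygen differences of -0.18 and -0.19. None of the 3 was called in either term, and 1 had an unadjusted limma p under 0.05 for oxygen and 0 for genotype. ETFA passed in the oxygen term with quantile scaling (adjusted p = 0.0420).

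Among the regulators PPARG stood out. PPARG, a nuclear receptor that drives lipid storage genes, read 1124 in the array labelled WT normoxia and 1960 in that labelled KD normoxia. Under the hypoxia label it read 762 in WT and 1372 in KD. Both KD arrays exceeded both WT arrays, and within each genotype the array labelled hypoxia was the lower one. PPARG rose in the genotype term by 0.81 (SE 0.08, limma adjusted p = 0.00165), a 1.76-fold change. It fell in the oxygen term by 0.53 (SE 0.08, limma adjusted p = 0.00406), a 1.44-fold change. The genotype differences were 0.79 and 0.84 and the oxygen differences -0.55 and -0.51. By arithmetic the gap between the pairs is the same in both contrasts (a difference of the responses of -0.04). It is the residual that the model already uses, so it is no further check. The difference of the arrays labelled KD hypoxia and WT normoxia was 0.28, since the terms have opposite signs there. PPARG has 1 probe set on this array, so no second one checks it.

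SREBF1, the main driver of synthesis genes, read 83.8 and 74.6 in the WT arrays and 65.5 and 59.8 in the KD arrays. Its genotype coefficient of -0.28 did not pass (adjusted p = 0.386). PPARA, the receptor that turns on oxidation genes, read 52.9, 53.3, 79.7 and 42.0 in the label order. The array labelled WT hypoxia stood above the other 3, and no term was called.

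FABP3, which carries fatty acids in the cytosol, read 6662 and 5003 in the arrays labelled WT normoxia and WT hypoxia. It read 8368 and 7391 in the arrays labelled KD normoxia and KD hypoxia. As for PPARG, both KD arrays were above both WT arrays and each array labelled hypoxia was below its normoxia partner. FABP3 rose in the genotype term by 0.44 (SE 0.06, limma adjusted p = 0.00740) and fell in the oxygen term by 0.30 (SE 0.06, limma adjusted p = 0.0210). These are changes of 1.36-fold and 1.23-fold. The second probe set gave coefficients of 0.46 and -0.28. The difference of the arrays labelled KD hypoxia and WT normoxia was 0.15.

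PLIN2, which coats lipid droplets, read 1466 and 2510 in the arrays labelled WT normoxia and WT hypoxia, and 1887 and 2734 in those labelled KD normoxia and KD hypoxia. Both arrays labelled hypoxia were above both labelled normoxia. PLIN2 rose in the oxygen term by 0.65 (SE 0.08, limma adjusted p = 0.00153), a 1.57-fold change. Its genotype coefficient of 0.24 did not pass (adjusted p = 0.121). Its other 3 probe sets gave oxygen coefficients of 0.63, 0.41 and 0.71 and genotype coefficients of 0.44, 0.42 and 0.06. Fitted by themselves, all 4 probe sets were called for oxygen and 2 of them for genotype, and with the median over probe sets the genotype call appeared too (0.43, adjusted p = 0.0187). The array labelled KD hypoxia exceeded that labelled WT normoxia by 0.89, the largest positive value of that pair among the 34 genes.

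**Figure D2:**
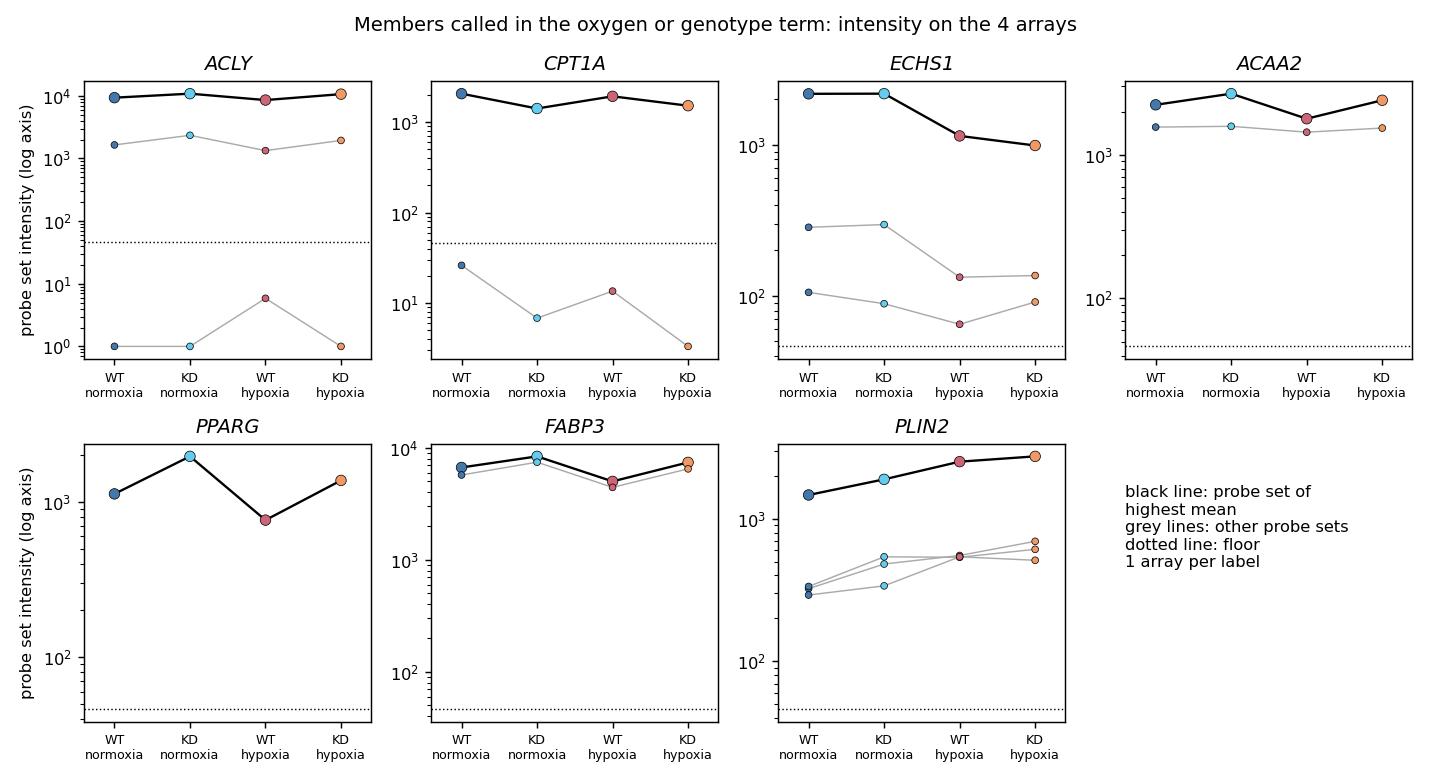
Probe set intensity on a log axis for the 7 fatty acid genes called in a term, with 1 point per array. Black lines join the probe set of highest mean, grey lines the others, and the dotted line is the floor at 46.3; the brightest ECHS1 probe set reads 2177 and 2182 under normoxia and 1146 and 990 under hypoxia, PLIN2 is higher under hypoxia in all 4, and PPARG and FABP3 are higher in KD.

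The pair KD hypoxia minus WT normoxia uses neither of the arrays whose possible exchange is described above. In this pair 1 of the 32 genes was at least 1.5-fold higher (PLIN2) and 2 lower (ECHS1 and the dim ACADL). Over all genes 4.56% were higher and 4.09% lower by that much. ECHS1 passed 2-fold, where 0.773% of all genes were lower and 1.02% higher by that much. ACADL counted too, with a lower value under the floor and no measured size. The median over the 34 genes was -0.09, against -0.0014 for all genes. ECHS1 and PLIN2, whose terms share a sign, necessarily differed there by more than their oxygen coefficients. CPT1A stood at -0.44, and PPARG, FABP3, ACLY and ACAA2 lay between 0.10 and 0.28.

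**Figure D3:**
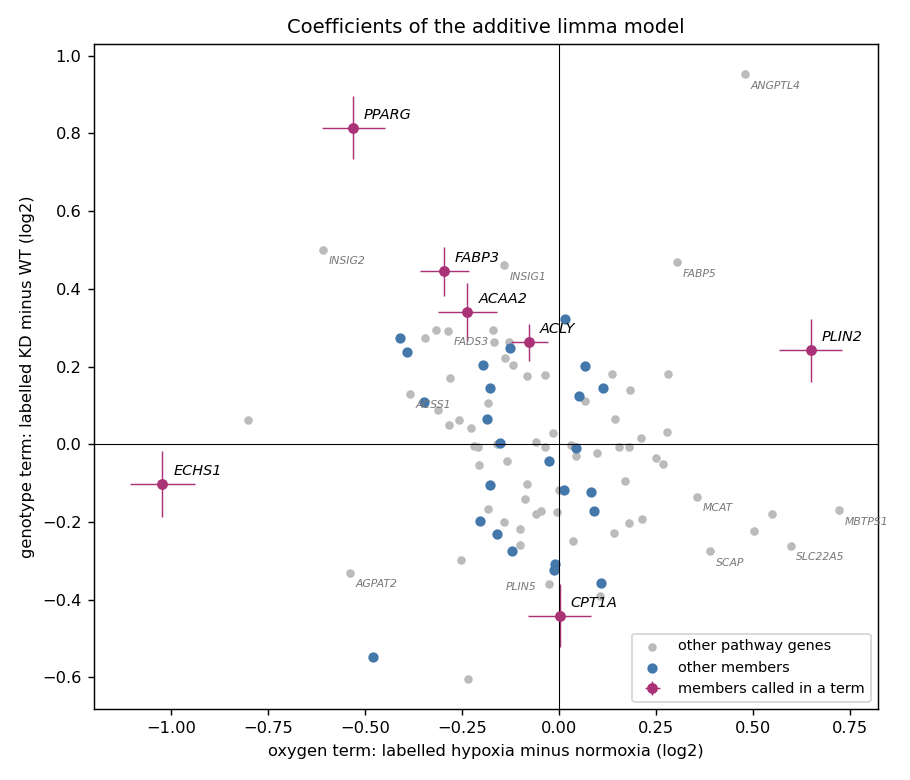
Coefficients of the additive limma model for the 32 tested fatty acid genes and 70 other pathway genes, with the oxygen term across and the genotype term up, both in log2 units. Bars are 1 SE of the genes called in a term; PPARG lies at -0.53 and 0.81, ECHS1 at -1.02 and -0.10, PLIN2 at 0.65 and 0.24 and CPT1A at 0.00 and -0.44, while most genes lie nearer to 0.

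Other genes of the pathway were taken from lists written beside the 34. Of 106 listed, 93 were measured and 70 reached the floor. In the oxygen term 4 rose and 4 fell (5.71% each), and in the genotype term 5 rose and 1 fell (7.14% and 1.43%) where the shares over all genes are those given above. All these calls ended without the intensity trend and without the floor.

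SREBP factors are released in the Golgi and held back by the INSIG proteins. The list of their regulators, which also holds MLXIPL and the lipins LPIN1, LPIN2 and LPIN3, had 4 of 10 tested genes called in a term, against 12.8% of all genes. INSIG2 read 237, 366, 161 and 219 in the label order. It fell in the oxygen term by 0.61 (SE 0.11, limma adjusted p = 0.0114) and rose in the genotype term by 0.50 (SE 0.11, limma adjusted p = 0.0395), the same signs as PPARG and FABP3. The genotype call ended with the floor at the 75th percentile (adjusted p = 0.0620). INSIG2 has 1 probe set, so no second one checks it. INSIG1 read 677, 971, 635 and 849 in the label order and rose in the genotype term by 0.46 (adjusted p = 0.0233), while its second probe set gave differences of 0.03 and 0.09. The INSIG1 call ended with the median over probe sets (0.26, limma adjusted p = 0.142). SCAP, the escort of SREBP, rose with labelled hypoxia by 0.39, and the site-1 protease MBTPS1 by 0.72. Second probe sets of SCAP (-0.30 and 0.02) and MBTPS1 (-0.41 and -0.16) did not show this rise, so both rest on 1 probe set. Both calls ended with the median over probe sets (limma adjusted p = 0.560 for SCAP and 0.294 for MBTPS1).

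Near the desaturases, FADS3 fell in the oxygen term by 0.28 and rose in the genotype term by 0.29, and its second probe set had the same signs. In mitochondria ACSS1, which activates acetate, fell with labelled hypoxia by 0.38 (limma adjusted p = 0.00442), and both of its probe sets were lower in both genotypes. MCAT of mitochondrial fatty acid synthesis rose by 0.36 and the carnitine transporter SLC22A5 by 0.60. Both calls ended with the median over probe sets, which takes in a dim second one (0.19, adjusted p = 0.325, and 0.29, adjusted p = 0.470). Of 11 tested genes of other mitochondrial oxidation and 6 of peroxisomal oxidation, limma called none in either term, against 12.8% of all genes. At an unadjusted p under 0.05 there were 3 and 1 for oxygen and 4 and 2 for genotype. Over the beta-oxidation cycle and these 2 lists, ECHS1 was the only gene called for oxygen in the fit as described. Over all genes 4.72% rose and 4.17% fell in that term, so nothing more is read from this count. Among the genes of the cycle, ACAA2 also fell under quantile scaling (adjusted p = 0.0176) and cyclic loess (0.0366), and ACAA1 with the median over probe sets (0.0495).

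Around PPAR signalling and storage, ANGPTL4, a PPAR target that inhibits lipoprotein lipase, read 53.4, 144, 99.4 and 171 in the label order. It rose in the genotype term by 0.95 (SE 0.16, limma adjusted p = 0.0151), the largest genotype coefficient in these lists. Its oxygen coefficient of 0.48 did not pass (limma adjusted p = 0.109) except under quantile scaling (0.0259) and the median over probe sets (0.0353). A second probe set had the same signs in all pairs, and the last, at 57.5 to 78.0, gave genotype differences of -0.06 and 0.36. FABP5, another fatty acid carrier, read 239 and 293 in the WT arrays against 330 and 420 in the KD arrays and rose by 0.47 (limma adjusted p = 0.0362), a call that ended with the median over probe sets (adjusted p = 0.102). AGPAT2, which makes phosphatidic acid, fell with labelled hypoxia by 0.54. PLIN5, a droplet coat protein of oxidative cells, read 1030 and 980 in the WT arrays and 773 and 784 in the KD arrays and fell in the genotype term by 0.36 (limma adjusted p = 0.0496).

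In the pair KD hypoxia minus WT normoxia, ANGPTL4 (1.43), FABP5 (0.77), MBTPS1 (0.55), SLC22A5 (0.34), INSIG1 (0.32) and MCAT (0.22) were higher in KD hypoxia. AGPAT2 (-0.87), PLIN5 (-0.39) and ACSS1 (-0.25) were lower. SCAP stood at 0.11, FADS3 at 0.01 and INSIG2 at -0.11. FADS3 and INSIG2, called with opposite signs in the terms, were thus near 0 in that pair.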

How the data were processed

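The authors deposited 1 intensity per probe set and array on a linear scale, per the file headers and values. Which software, background correction and scaling made it is not given in the sources used here. Biotinylated cRNA came from 100 ng of total RNA, per the labels' protocols. Each of the 4 groups has 1 array, which limits the precision. Of 42924 probe sets, 29254 had 1 gene symbol, 439 several and 13231 none. RefSeq's gene list for assembly UU_Cfam_GSD_1.0, matched on gene ID and used for symbols, held 31 of the 34 genes, all under the same symbol.

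Values were taken as log2(intensity + 16). The probe set of highest mean stood for its gene, and 9834 genes whose highest value reached the median of all values (46.3) were fitted with limma 3.58.1 in R 4.3.3 (genotype plus oxygen, eBayes with intensity trend, two-sided, Benjamini-Hochberg, threshold 0.05; prior of 8.10 degrees of freedom). The steps were tested on simulated data. All 34 genes could be named. Of the other listed genes, those called, those at least 1.5-fold apart and otherwise the 2 largest differences of a list could be named. Values are given here for the called ones only. The genes, lists and tests were chosen with earlier results of these data known. The pair KD hypoxia minus WT normoxia was added after seeing the data. Alternatives were 3 scalings, the median over probe sets, 3 floors, pseudocounts of 1 and 64, no trend, each probe set by itself, and 2-fold in place of 1.5-fold.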

Additional observations from a re-analysis of the deposited data

Results flagged for a closer look

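The 34 genes and the 12 other pathway genes called in a term were checked for opposite signs between the pairs of a contrast, 46 genes in all. Opposite signs appeared in 13. In 10 of them labelled hypoxia went with a higher value in one genotype and a lower value in the other, and in 5 the sign of KD minus WT turned with the oxygen label. These are 28.3%, 21.7% and 10.9% of the 46 genes, of which 12 were picked as called, against 54.5%, 38% and 38.4% of all 15115 genes. The latter include genes that never reached the floor. Above the floor in all arrays, 7 of 30 fatty acid genes shared no sign in the oxygen pairs, against 2633 of 8283 genes. In the genotype pairs it was 3 of 30 against 2636 of 8283. With 1 array per group these differences were not tested. Each value here is the WT oxygen response minus the KD oxygen response, in log2 units. In 2 genes the oxygen responses lay at least 0.2 from 0 on both sides. These were PPARA (0.73), below the floor in 1 array, and FADS2 (0.57), below it in all 4, so neither size is measured. Both also turned in KD minus WT. Oxygen responses of opposite sign were also found for CPT1A (-0.20), ACADS (-0.18), ACSL1 (0.14), FADS1 (0.13), FASN (-0.13), ACSL3 (-0.10), PLIN5 (-0.092) and ACACA (0.039). The sign of KD minus WT turned for ACSL4 (-0.32), ECHS1 (0.21) and ACADM (0.067).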

How the results depend on the processing

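No called gene's coefficient turned its sign under another scaling, floor or pseudocount, without the trend or with the median over probe sets. Second probe sets of MBTPS1 (-0.41 and -0.16) and SCAP (-0.30 and 0.02) did not share the sign of the called ones in both oxygen pairs. In the oxygen term limma called 4 of the fatty acid genes, and 9 with quantile scaling, 7 with cyclic loess, 7 with the median over probe sets, 1 without the floor and 0 without the intensity trend (7 at an unadjusted p under 0.05). In the genotype term it called 5, and 8 with quantile scaling, 8 genes (11 probe sets) when each probe set was fitted by itself, 0 without the floor (13 at an unadjusted p under 0.05) and 0 without the trend (9). Over all genes the oxygen calls were 874 of 9834, and 1517 of 9850 with quantile scaling. They were 1213 of 9860 with cyclic loess and 883 of 8452 with the median over probe sets. Without the floor 77 of 15115 were called, without the trend 7 of 9834, and of single probe sets 2427 of 23652. The genotype calls were 528 of 9834, and 1311 of 9850 with quantile scaling and 932 of 9860 with cyclic loess. They were 0 without the floor (2112 at an unadjusted p under 0.05) and 0 without the trend (1733). Of single probe sets 2153 of 23652 were called. Of the genotype calls 54.7% rose, and 65.6% with median centring. The other alternatives kept the counts for the fatty acid genes within 1.5 times. The degrees of freedom of limma's prior moved too, from 8.10 to 15.4 with cyclic loess and 18.1 with the median over probe sets. With quantile scaling they were infinite, so passes there take no account of a gene's own residual. The cause of these shifts was not tested.

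Genes past 1.5-fold numbered 2 in WT hypoxia minus WT normoxia and 0 past 2-fold. In KD hypoxia minus KD normoxia 1 became 2 with a pseudocount of 1. In KD minus WT normoxia 1 became 3 with the median over probe sets, 2 with a pseudocount of 1 and 0 at 2-fold. In KD minus WT hypoxia 3 became 1 with the floor at the 75th percentile, 1 with a pseudocount of 64 and 0 at 2-fold. In the difference of the responses 1 became 0 under each of these 3 and with the median over probe sets. Dim genes such as PPARA and ACADL are limited by signal over background. No paired analysis was possible because each group has 1 array. For the same reason no array could be left out, since the additive model would keep no residual degree of freedom.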

Other observations

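Chosen after the values were seen, the order of the 4 arrays was counted over genes above the floor in all of them. KD normoxia, then KD hypoxia, then WT normoxia, then WT hypoxia, from high to low, was the order of 544 of 8283 genes (6.57%) and of 6 of the 30 fatty acid genes (20%): ACLY, ACADVL, ACAA1, ACAA2, PPARG and FABP3. The order with KD normoxia first, then WT normoxia, KD hypoxia and WT hypoxia held for 6.95% of genes and for ACSS2, ELOVL6, SCD and ETFA. These genes belong to synthesis, oxidation and storage alike. The order was not tested, and small differences decide it for several of them.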
